A study of Mus musculus with 3264 samples.

Results

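The splicing factor genes described here are the genes of both expression tables whose symbols begin with Srsf and a digit, Hnrnp, Snrp, Sf3a or Sf3b, U2af or Prpf. There were 68 of them, out of 24781 genes listed for the cell lines and 25051 listed for peripheral blood mononuclear cells (PBMC). A further symbol matched the rule but carries the pseudogene ending -ps and was left out. By family the 68 comprised 11 SR proteins (Srsf), 20 heterogeneous nuclear ribonucleoproteins (hnRNPs), 12 proteins of the small nuclear ribonucleoproteins (Snrp, snRNP), 9 subunits of SF3A and SF3B, 3 U2AF genes and 13 Prpf genes. Single mouse cells had been put into wells, lysed without RNA purification and counted gene by gene with a molecular barcode on an oligo-dT primer. The cell mixture held a hematopoietic progenitor cell (HPC) line, a T cell line and a leukemia line, for which the labels give no strain, line name, genotype or treatment. ALPS, an instrument that images and picks single cells, placed cells of a chosen line on 4 plates (target wells), cells after time-lapse imaging on 16 plates, and cells taken at random on 4 plates. Fluorescence-activated cell sorting (FACS) filled a further 2 plates with each line. PBMC of C57BL/6J mice were picked by ALPS after time-lapse imaging on 8 plates, with no age or number of animals in the labels.

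Introns are removed by the spliceosome, which is built anew on each pre-mRNA from snRNPs, particles of a small nuclear RNA with a shared ring of Sm proteins and particle-specific proteins. U2AF and the U2-bound SF3A and SF3B complexes mark the 3′ splice site and the branch point, Prpf proteins carry the tri-snRNP into the complex and help to activate it, and SR proteins and hnRNPs bind exons and introns and shift which sites are used. Most of these genes are active in every dividing cell, and a few, Hnrnpll among them, are known from T cells, where it promotes skipping of the variable exons of Cd45.

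The values were molecule counts per gene and well, summed per plate and line and given per 1000000 counts (CPM). Totals ran from 10005 to 140363 counts a well in 1836 cell line wells and from 1013.98 to 7992 counts in the PBMC wells used, and no well repeated another well's values. A well holds 1 cell, and no source animal or culture is named, so a group is treated as 1 sample. There is therefore no significance test, plates are a technical batch, and SDs are over plates. A member was called higher or lower in a comparison at 1.5-fold or more with the same direction on every plate (85% of plates for time-lapse wells); between sets of wells, the same share of plates had to lie beyond all plates of the other set. A call needed at least 20 CPM in the mean over the target lines, which 64 of the 68 members and 5957 genes in all reached. The 4 members below it were Hnrnpul1, Prpf40b, Snrpn and Srsf12. The line of a random, FACS or time-lapse well was taken from its closest target profile, computed without the splicing genes. The labels of the FACS wells went against these profiles, since only 33.5% of them had the profile of their label. In the target wells all T and leukemia wells had the profile of their label, as did 70 of 73 HPC wells, and the other 3 HPC-labelled wells were all on plate 4. Time-lapse wells closest to the T profile also stood apart: the median lead of the best over the next profile was 0.122 in Spearman correlation, against 0.224 in random T wells. The 8 T markers present summed to 113.5 CPM in HPC, 1619.8 CPM in T and 779.3 CPM in leukemia target wells, and the 9 progenitor markers to 2194, 4.07 and 0.704 CPM in the same order of lines.

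The upstream sequences of 4 members whose level separated the lines are shown first, so that the genes behind the results below can be seen. They are Srsf6, low in leukemia cells, Hnrnph1, high in HPC cells, Snrpb2, low in HPC cells, and Sf3a3, high in leukemia cells. Each is the 250 bases before the RefSeq start on GRCm38.p6, plus strand, 5′ to 3′. Capitals mark matches on either strand to any of 4 motifs. The GC box was searched as GGGCGG. The CCAAT box was searched by its own letters. The E-box was searched as CACGTG. The ETS-type motif was searched as CCGGAAG. No motif contains another. Hnrnph1 has 5 listed starts, of which the first is shown. The windows are chr2:162931258-162931507 for Srsf6, chr2:143062819-143063068 for Snrpb2, chr11:50376740-50376989 for Hnrnph1, chr4:124714611-124714860 for Sf3a3.
Srsf6: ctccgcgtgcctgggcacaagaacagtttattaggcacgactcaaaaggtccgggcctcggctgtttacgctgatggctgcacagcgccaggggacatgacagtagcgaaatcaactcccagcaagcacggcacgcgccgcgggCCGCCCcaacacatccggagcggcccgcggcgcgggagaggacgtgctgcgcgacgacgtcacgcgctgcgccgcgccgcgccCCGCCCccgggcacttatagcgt
Snrpb2: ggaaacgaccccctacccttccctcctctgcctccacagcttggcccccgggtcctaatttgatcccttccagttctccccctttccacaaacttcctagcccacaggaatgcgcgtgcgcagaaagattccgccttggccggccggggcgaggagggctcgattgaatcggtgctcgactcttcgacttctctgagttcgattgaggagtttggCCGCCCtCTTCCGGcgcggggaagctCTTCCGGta
Hnrnph1: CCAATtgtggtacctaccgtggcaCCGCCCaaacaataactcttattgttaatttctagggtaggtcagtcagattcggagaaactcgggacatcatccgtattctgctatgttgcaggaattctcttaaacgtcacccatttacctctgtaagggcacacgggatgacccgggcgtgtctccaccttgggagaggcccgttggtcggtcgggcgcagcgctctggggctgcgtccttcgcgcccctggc
Sf3a3: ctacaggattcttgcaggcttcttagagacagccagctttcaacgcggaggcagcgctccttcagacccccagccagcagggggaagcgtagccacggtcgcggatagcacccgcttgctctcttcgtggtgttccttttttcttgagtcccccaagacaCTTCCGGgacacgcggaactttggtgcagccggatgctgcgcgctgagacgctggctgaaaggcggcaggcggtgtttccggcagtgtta
Srsf6 held a GC box at positions -106 and -23 from the start. Snrpb2 held a GC box at -35 and an ETS-type match at -28 and -9. Hnrnph1 held a CCAAT box at -250 and a GC box at -226, and Sf3a3 held an ETS-type match at -90. The GENCODE M21 annotation begins Snrpb2 at chr2:143063039 and Sf3a3 at chr4:124714776, so their windows run into the gene as annotated there. Both ETS-type matches of Snrpb2 lie past that start. Of the 68 members, 59 had a listed promoter, and GGGCGG was found in 39 of them (66.1%), against 32.9% of all 27025 promoters. CCGGAAG was found in 17 (28.8%), against 7.05% of all. CCAAT was found in 28 (47.5%), against 34.5%, and CACGTG in 5 (8.47%), against 6.05%. These matches are a description of the letters in this window and name no bound factor. Members and background took only the first listed promoter of each gene symbol. The background had no regard to whether the gene was detected in these cells, and no share among detected genes was counted.

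The first comparison asked which splicing factor genes differed between the 3 lines in wells picked by type. Most members were not called between any of the lines, and a small set stood out. Sf3b4 and Hnrnpll were high in T cells, Hnrnph1 in HPC cells and Sf3a3 in leukemia cells. Srsf6 was low in leukemia cells and Snrpb2 low in HPC cells. For T minus leukemia, 5 members were called higher and 4 lower (14.1% of 64), beside 39.6% of all genes, 19.7% higher and 19.9% lower. For HPC minus leukemia, 3 were higher and 4 lower (10.9%), beside 34.8% of all genes, 13.8% higher and 21% lower. For HPC minus T, 4 were higher and 10 lower (21.9%), beside 38.5% of all genes, 15.6% higher and 22.9% lower. The median log2 difference of the 64 members was -0.04, 0.01 and 0.08 in these comparisons, against -0.01, -0.13 and -0.11 over all genes. Scaling by median of ratios instead of total counts moved the median of all genes to -0.02 for HPC minus leukemia and to 0.00 for HPC minus T, and the splits of members to 5 higher and 4 lower and to 8 and 8. Of all genes called, the higher share then rose as well, from 39.8% to 48.8% for HPC minus leukemia. For HPC minus T it rose from 40.5% to 49.6%. Any 2 of these comparisons share the wells of a line.

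**Figure D1:**
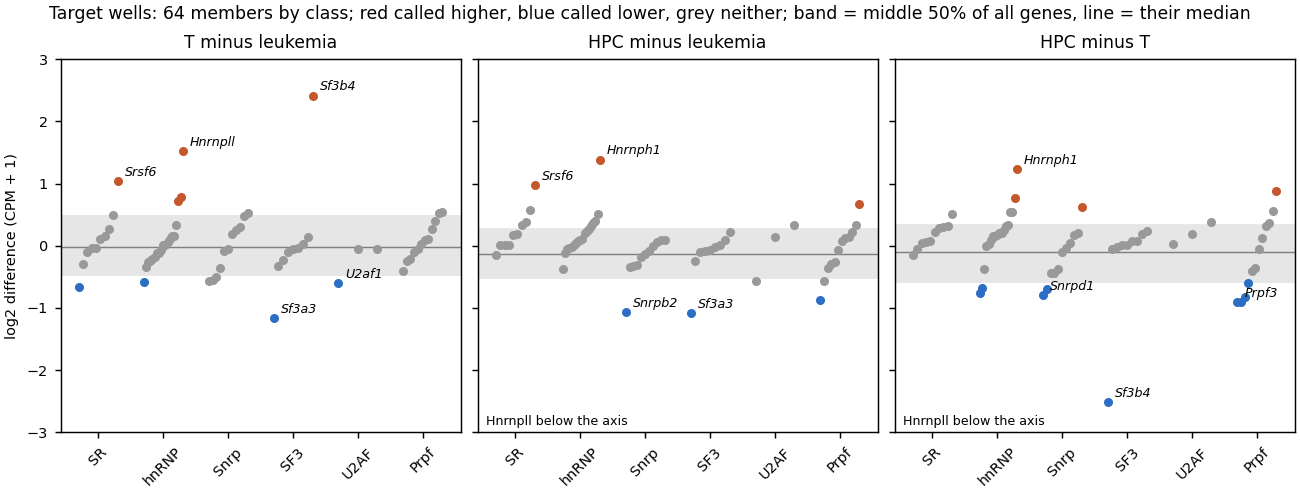
Log2 differences in CPM + 1 between lines in target wells for the 64 members, grouped by family on the x axis; red points were called higher, blue points called lower and grey points neither, and the grey band and line give the middle 50% and the median of all 5957 genes. Sf3b4 lies at 2.41 in T minus leukemia and at -2.52 in HPC minus T, and most grey points fall inside the band.

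Among the branch point factors, Sf3b4 gave the widest separation. Sf3b4 encodes the SF3B subunit that contacts the pre-mRNA upstream of the branch point (GENCODE M21 annotation of GRCm38, chr3:96172332-96177564, plus strand, with the antisense Gm17690 overlapping it, and counting by strand is not stated). By plate it had 147.3, 146.2, 107.3 and 178.2 CPM in HPC, 1054.7, 997.5, 602.3 and 712.6 CPM in T and 151.3, 153.9, 155.2 and 151.6 CPM in leukemia wells. Every T plate lay above every HPC and leukemia plate, with a log2 difference of 2.41 (SD 0.40, n = 4 plates) for T minus leukemia and -2.52 (SD 0.38, n = 4 plates) for HPC minus T. In single wells the lowest, median and highest values were 0, 109.5 and 555.5 CPM in HPC, 282.8, 835.3 and 1562.9 CPM in T and 0, 135.7 and 415.3 CPM in leukemia wells, so single T wells could overlap the highest wells of the other lines. Random wells, which were not used above, gave 126.6, 127.1, 122.5 and 97.2 CPM in HPC, 888.2, 871.3, 879.5 and 932.5 CPM in T and 178.9, 158.8, 173.8 and 165.9 CPM in leukemia wells, and the T plates again lay above all others. The 2 FACS plates had 117.7 and 164.2 CPM in wells with the HPC profile, 1407.3 and 826.7 CPM with the T profile and 161.5 and 211.4 CPM with the leukemia profile.

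Sf3a3, an SF3A subunit of the U2 snRNP (chr4:124714776-124732460, plus strand, overlapped by Gm12917 on the same strand), was lower in HPC and T cells than in leukemia cells. Its target plates had 82.97, 95.7, 89.1 and 126.8 CPM in HPC, 71.3, 87.4, 101.4 and 112.5 CPM in T and 218.05, 228.4, 189.1 and 197.1 CPM in leukemia wells. All leukemia plates lay above all plates of the other lines, with a log2 difference of -1.17 (SD 0.38, n = 4 plates) for T minus leukemia and -1.08 (SD 0.33, n = 4 plates) for HPC minus leukemia, while the HPC and T plates overlapped. The other 7 of the 9 SF3A and SF3B genes were called in none of the 3 comparisons. Sf3b1, the SF3B subunit that holds the branch point, was called in no comparison, with 248.6 ± 21.6 CPM in HPC, 246.3 ± 19.7 CPM in T and 265.2 ± 24.5 CPM in leukemia wells (SD, n = 4 plates each). U2af1, which reads the AG at the end of the intron, had 240.4, 213.96, 207.4 and 203.8 CPM in HPC, 197.6, 163.1, 250.7 and 246.99 CPM in T and 310.4, 322.2, 314.3 and 341.2 CPM in leukemia wells. Its leukemia plates lay above all others, and the log2 difference was -0.60 (SD 0.28, n = 4 plates) for T minus leukemia and called, and -0.57 (SD 0.15, n = 4 plates) for HPC minus leukemia, just under 1.5-fold. U2af2, the partner that binds the pyrimidine tract, was not called, at 264.99 ± 10.1, 208.6 ± 52.6 and 211.8 ± 21.9 CPM in HPC, T and leukemia wells.

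**Figure D2:**
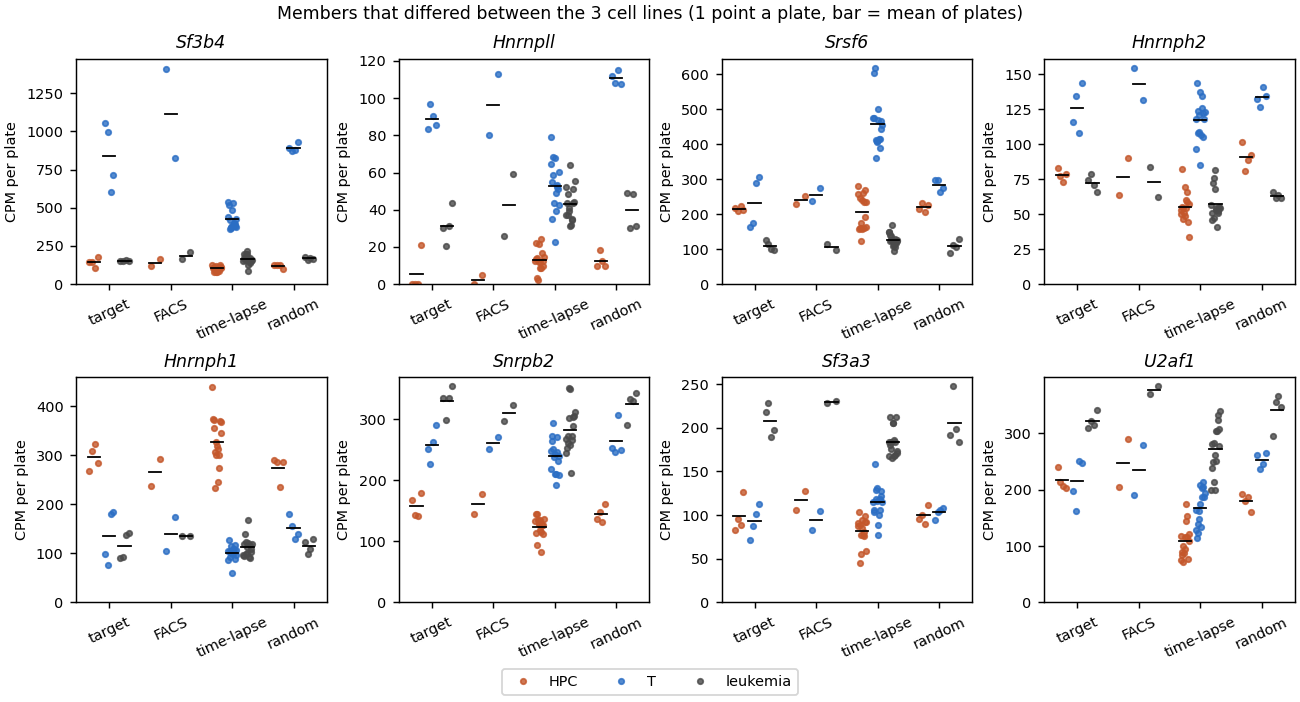
CPM per plate (y axis) of 8 members in target, FACS, time-lapse and random wells (x axis) for the HPC (red), T (blue) and leukemia (grey) lines; each point is a plate and each bar the mean of plates. Sf3b4 is highest in T wells, Hnrnph1 in HPC wells and Sf3a3 in leukemia wells of each set, while the Hnrnpll plates of T and leukemia wells overlap in the time-lapse set, and the time-lapse T plates of Sf3b4 lie below the random ones.

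Of the 19 hnRNP genes that could be called, Hnrnpll, the splicing regulator of Cd45 (chr17:80029487-80062334, minus strand, overlapped by the antisense AC122253.3), followed the T line. It had 0, 0, 0 and 21.1 CPM in HPC, 83.3, 96.7, 90.6 and 85.6 CPM in T and 30.4, 20.3, 31.3 and 43.6 CPM in leukemia wells. The T plates lay above all leukemia plates and these above the first 3 HPC plates, at 1.52 (SD 0.51, n = 4 plates) on the log2 scale for T minus leukemia. The value on HPC plate 4 came with the 3 wells whose profile was not HPC: those 3 wells held 11 of the 14 counts, and the 70 wells with the HPC profile held 3 (1.26 CPM). No fold against target HPC wells is given for this reason. In random wells Hnrnpll had 9.88, 18.4, 12.5 and 9.88 CPM in HPC, 111.8, 108.4, 115.3 and 107.7 CPM in T and 49.1, 30.2, 48.5 and 31.3 CPM in leukemia wells, a log2 difference of -3.08 (SD 0.40, n = 4 plates) for HPC minus T. Per random well the lowest, median and highest values were 0, 0 and 126.7 CPM in HPC, 0, 100.5 and 320.2 CPM in T and 0, 35.7 and 168.5 CPM in leukemia wells.

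Hnrnph1, which binds runs of G, was higher in HPC cells (chr11:50376990-50386528, plus strand, with no overlapping gene). Its target plates had 269.2, 309.7, 324.2 and 285.3 CPM in HPC, 97.95, 75.7, 180.1 and 185.4 CPM in T and 90.01, 92.9, 138.5 and 141.3 CPM in leukemia wells. Per well the lowest, median and highest values were 0, 269.2 and 664.4 CPM in HPC, 0, 130.2 and 597.6 CPM in T and 0, 106.6 and 426.7 CPM in leukemia wells. Single wells overlapped, but all HPC plates lay above all plates of the other lines, at 1.38 (SD 0.33, n = 4 plates) for HPC minus leukemia and 1.23 (SD 0.63, n = 4 plates) for HPC minus T. The related Hnrnph2 was highest in T cells, with 82.97, 77.4, 72.8 and 78.5 CPM in HPC, 115.996, 134.5, 107.8 and 143.98 CPM in T and 74.4, 78.4, 70.8 and 65.9 CPM in leukemia wells, and was called for T minus leukemia (0.78) and HPC minus T (-0.67). Hnrnph3 had 37.3, 52.1, 40.02 and 51.3 CPM in HPC, 30.1, 25.2, 21.6 and 27.2 CPM in T and 38.03, 33.9, 27.3 and 26.5 CPM in leukemia wells and was called for HPC minus T (0.77), with the overlapping gene Rufy2 on the other strand. These related genes did not share an order of the lines. Hnrnpul2, a nuclear RNA-binding protein, was higher in T cells on every plate, with 110.1, 126.7, 143.7 and 144.9 CPM in HPC, 220.8, 211.9, 237.2 and 222.3 CPM in T and 125.9, 127.2, 137.5 and 152.6 CPM in leukemia wells. Hnrnpa2b1, which binds UAG motifs, was lower in T cells than in leukemia cells, with 352.2, 437.8, 374.7 and 412.2 CPM in HPC, 269.4, 286.3, 227.3 and 298.2 CPM in T and 376.1, 360.4, 404.5 and 489.4 CPM in leukemia wells and a difference of -0.59 (SD 0.22, n = 4 plates).

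The other hnRNPs named were not called between the lines. Hnrnpu, a nuclear matrix protein, had 957.04 ± 32.8 CPM in HPC, 818.4 ± 178.5 CPM in T and 723.9 ± 51.1 CPM in leukemia wells (SD, n = 4 plates each, as for the values that follow). Hnrnpk, which binds C-rich RNA, had 719.1 ± 31.1, 643.5 ± 119.4 and 608.6 ± 45.5 CPM in the same lines. Hnrnpc, which binds U tracts, had 487.6 ± 15.3, 391.4 ± 68.9 and 406.7 ± 43.3 CPM. Hnrnpab had 933.7 ± 49.1, 818.7 ± 137.8 and 753.6 ± 46.2 CPM, Hnrnpf 500.6 ± 41.8, 650.6 ± 58.1 and 648.5 ± 69.97 CPM, and Hnrnpm 478.1 ± 59.4, 386.2 ± 82.3 and 451.1 ± 25.8 CPM. In each of these genes the T plates had the largest SD of the lines, except in Hnrnpf. Hnrnpa1 and Hnrnpa3 are uncertain, since 90.6% and 61.7% of their positive values were not whole numbers, for which the sources used here give no reason. Hnrnpa1, a splicing silencer, had 630.9 ± 75.7, 626.1 ± 127.9 and 488.5 ± 29.6 CPM, and Hnrnpa3 924.7 ± 55.4, 830.6 ± 58.3 and 942.3 ± 57.3 CPM.

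Of 10 SR genes, Srsf6 and Srsf11 were called. Srsf6, an SR protein that binds exonic enhancers (chr2:162931528-162937121, plus strand), was lowest in leukemia cells, with 217.2, 208.3, 221.9 and 212.9 CPM in HPC, 163.3, 174.5, 287.4 and 307.2 CPM in T and 125.5, 114.2, 101.6 and 96.2 CPM in leukemia wells. Per well the lowest, median and highest values were 65.8, 190.8 and 517.7 CPM in HPC, 28.1, 210.9 and 640.8 CPM in T and 0, 99.8 and 261.7 CPM in leukemia wells. Single wells overlapped, but all leukemia plates lay below all plates of the other lines, at 1.03 (SD 0.64, n = 4 plates) for T minus leukemia and 0.98 (SD 0.18, n = 4 plates) for HPC minus leukemia. Srsf11, an SR-related protein, had 408.1, 409.6, 465.7 and 364.2 CPM in HPC, 231.1, 231.8, 365.02 and 347.3 CPM in T and 384.5, 413.7, 555.7 and 489.99 CPM in leukemia wells and a log2 difference of -0.67 (SD 0.15, n = 4 plates) for T minus leukemia. Srsf1, Srsf2, Srsf3, Srsf5 and Srsf7 were not called in target wells. Srsf3, which also takes part in mRNA export, had 518.7 ± 15.8 CPM in HPC, 443.2 ± 134.9 CPM in T and 463.2 ± 51.99 CPM in leukemia wells. Srsf2, which has overlapping genes on the other strand, had 488.3 ± 46.1, 404.4 ± 99.2 and 484.9 ± 31.6 CPM, and Srsf1 306.6 ± 28.9, 303.6 ± 105.5 and 268.3 ± 11.3 CPM. Srsf5 had 337.1 ± 30.7, 280.9 ± 88.4 and 225.7 ± 22.3 CPM, a log2 difference of 0.58 for HPC minus leukemia that lay just under 1.5-fold, and Srsf7 273.2 ± 21.6, 310.2 ± 77.2 and 216.01 ± 18.5 CPM.

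Among 11 snRNP proteins, Snrpb2 of the U2 particle (chr2:143063039-143072853, plus strand) ordered all 3 lines. It had 167.6, 143.6, 140.97 and 178.9 CPM in HPC, 250.5, 225.7, 262.04 and 289.95 CPM in T and 334.7, 298.8, 333.7 and 354.5 CPM in leukemia wells. The plates of the 3 lines did not overlap, and the log2 difference was -1.07 (SD 0.12, n = 4 plates) for HPC minus leukemia and -0.70 (SD 0.13, n = 4 plates) for HPC minus T. Random wells gave the same order without overlap only between HPC plates and the rest, with 136.4, 147.8, 131.2 and 161.4 CPM in HPC, 253.4, 246.4, 306.6 and 248.9 CPM in T and 290.5, 333.1, 329.9 and 342.7 CPM in leukemia wells. Of the Sm ring, Snrpd1 had 321.7, 296.3, 249.2 and 271.8 CPM in HPC, 454.5, 364.04, 604.4 and 589.9 CPM in T and 330.5, 345.2, 371.6 and 361.6 CPM in leukemia wells and was called lower in HPC than in T cells, with a log2 difference of -0.80 (SD 0.47, n = 4 plates). Snrpg, also of the ring, went the other way, with 772.1, 624.99, 614.8 and 659.8 CPM in HPC, 441.6, 377.1, 415.7 and 500.9 CPM in T and 646.96, 659.9, 607.3 and 636.4 CPM in leukemia wells and 0.62 (SD 0.18, n = 4 plates) for HPC minus T. Snrpe was not called in target wells, with 355.6, 294.2, 260.1 and 367.3 CPM in HPC, 374.2, 352.1, 500.4 and 513.9 CPM in T and 304.9, 300.9, 275.8 and 303.3 CPM in leukemia wells, but was called in random wells, at 1.01 (SD 0.26, n = 4 plates) for T minus leukemia and -1.20 (SD 0.17, n = 4 plates) for HPC minus T. Snrpb, the Sm protein B, was level, at 319.4 ± 30.7 CPM in HPC, 313.2 ± 63.4 CPM in T and 321.97 ± 31.01 CPM in leukemia wells. Snrpn, the imprinted relative of Snrpb, was listed at 0 counts in HPC and T target wells, which allows up to 1.19 and 0.627 CPM, and at 2.82 counts in leukemia wells, so no difference is given. It is uncertain as well, since 96.6% of its positive values over all wells were not whole and Snurf overlaps it on the same strand.

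Of 12 Prpf genes, 1 was higher and 4 were lower in HPC than in T cells, 5 of 12 in all and near the 38.5% of all genes called in that comparison. Prpf39, a U1-associated protein, had 52.5, 56.3, 52.8 and 68.7 CPM in HPC, 21.5, 29.4, 44.8 and 31.2 CPM in T and 37.2, 29.997, 32.4 and 44.5 CPM in leukemia wells and was higher in HPC cells, with log2 differences of 0.88 (SD 0.45, n = 4 plates) for HPC minus T and 0.67 (SD 0.17, n = 4 plates) for HPC minus leukemia. Prpf3, a protein of the U4/U6 particle, had 27.1, 26.7, 27.3 and 37.7 CPM in HPC, 42.1, 36.99, 79.8 and 79.6 CPM in T and 51.6, 61.9, 54.6 and 52.1 CPM in leukemia wells and was lower in HPC cells in both comparisons (-0.91 and -0.88). Prpf38b was highest in T cells, with 215.9, 254.1, 306.5 and 209.1 CPM in HPC, 340.7, 376.7, 669.1 and 507.6 CPM in T and 271.3, 309.6, 412.6 and 278.2 CPM in leukemia wells and -0.91 (SD 0.35, n = 4 plates) for HPC minus T. Prpf38a, a protein of the activating spliceosome, had 45.7, 63.3, 56.4 and 80.02 CPM in HPC, 85.9, 71.5, 102.4 and 110.8 CPM in T and 60.9, 49.3, 80.9 and 64.4 CPM in leukemia wells, and Prpf18, a second-step factor, had 28.8, 21.1, 27.3 and 15.1 CPM in HPC, 34.1, 39.5, 44.2 and 45.8 CPM in T and 35.5, 27.1, 36.4 and 36.96 CPM in leukemia wells. Both were called lower in HPC than in T cells, at -0.60 and -0.83. Prpf8, the core of the catalytic centre, and Prpf19, its associated ubiquitin ligase, were not called. Prpf8 had 201.2 ± 16.6 CPM in HPC, 210.6 ± 31.3 CPM in T and 158.9 ± 16.8 CPM in leukemia wells, and Prpf19 231.9 ± 16.4, 217.5 ± 59.7 and 219.4 ± 4.29 CPM.

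The T-labelled target plates were not alike. The members together took 1.77, 1.78, 1.71 and 1.86% of counts on the HPC plates, 1.60, 1.51, 1.99 and 2.04% on the T plates and 1.73, 1.65, 1.78 and 1.75% on the leukemia plates, so T plates 1 and 2 lay below T plates 3 and 4. Srsf6 and Prpf3 had lower values on T plates 1 and 2 than on 3 and 4, as given above, while Sf3b4 had higher ones. In random wells the members took 1.67, 1.71, 1.55 and 1.55% on the HPC plates, 1.99, 1.96, 1.92 and 1.94% on the T plates and 1.70, 1.75, 1.77 and 1.73% on the leukemia plates, and the T plates lay above the others. The cause of the split between T plates was not tested.

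Because random wells share no cell with the target wells, they show which of the differences recur. Of the members called in target wells, all 5 higher and 2 of 4 lower were called the same way in random wells for T minus leukemia, the 2 that recurred in the lower direction being Sf3a3 and Hnrnpa2b1. For HPC minus leukemia 2 of 3 higher and 4 of 4 lower recurred, and for HPC minus T 2 of 4 higher and 8 of 10 lower. No member was called in opposite directions. In random wells 10 members were higher and 2 lower for T minus leukemia (18.8% of 64, beside 40.8% of all genes, 21.5% higher and 19.3% lower), so the recurring calls were 50% of the higher and 100% of the lower ones. The calls were 3 and 6 for HPC minus leukemia (14.1%, beside 38% of all genes, 15.9% higher and 22.2% lower), of which 66.7% of the higher and 66.7% of the lower were shared with target wells. They were 2 and 13 for HPC minus T (23.4%, beside 44% of all genes, 17.6% higher and 26.4% lower), of which 100% and 61.5% were shared. Over all genes 85.2% of the higher and 81.5% of the lower target calls recurred for T minus leukemia, 84.2% of the higher and 76.5% of the lower for HPC minus leukemia, and 81.6% of the higher and 77.96% of the lower for HPC minus T. With median of ratios scaling the random splits became 4 and 5 for HPC minus leukemia and 3 and 9 for HPC minus T. The higher share of all genes called rose too, from 41.7% to 49.3% and from 39.97% to 48.5% in the same order.

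Cells picked after time-lapse imaging were next set against cells picked at random, by profile. The sets share no plate, so imaging and plate cannot be told apart. HPC-profile time-lapse wells had lower levels of 6 snRNP genes than random ones. T-profile time-lapse wells had less Sf3b4, Hnrnpll and Snrpe and more Hnrnpa2b1 and Srsf6, and in leukemia-profile wells 1 member was called. In HPC-profile wells 1 member was called higher and 14 lower (23.4% of 64, beside 24% of all genes, 7.94% higher and 16.1% lower), with a median of -0.26 for the members and -0.11 for all genes. In T-profile wells the numbers were 2 and 16 (28.1%, beside 32% of all genes, 12.2% higher and 19.8% lower; medians -0.17 and -0.06), and 4 and 11 when the ribosomal RNA gene Rn45s was left out of the total. In leukemia-profile wells they were 0 and 1 (1.56%, beside 7.96% of all genes, 2.84% higher and 5.12% lower), and 3 and 1 without Rn45s. For HPC-profile wells the split without Rn45s was 1 higher and 11 lower, with medians of -0.19 for the members and -0.05 for all genes. The higher share of all genes called rose without Rn45s too, so these shifts were not particular to the members. It went from 33.1% to 41.8% in HPC, from 38.2% to 43.1% in T and from 35.7% to 54.1% in leukemia wells. Rn45s took a median of 13.1% of counts in time-lapse wells and 8.997% in random wells. The shares of members called in HPC and T wells were near those of all genes.

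In HPC-profile wells 6 of 11 snRNP proteins were lower in time-lapse than in random wells and none higher, with a family median of -0.65 on the log2 scale. Snrpa1, a protein of the U2 particle, had a lowest, median and highest plate of 24.1, 49.04 and 98.8 CPM in 16 time-lapse plates, against 105.7, 109.2, 116.5 and 100.5 CPM on the random plates. Snrpd1 had 90.7, 138.1 and 175.1 CPM, against 211.9, 305.8, 268.7 and 238.8 CPM, and Snrpf of the Sm ring had 117.6, 222.9 and 317.6 CPM, against 406.1, 406.3, 373.1 and 337.7 CPM. These 3 differed by -1.13, -0.90 and -0.85 on the log2 scale, and for each of them every time-lapse plate lay below every random plate. Outside the snRNPs, Prpf31 of the U4/U6 particle had 22.8, 53.3 and 88.9 CPM, against 104.7, 114.99, 96.2 and 105.4 CPM (-1.11), and Prpf38b was the member called higher, with 221.5, 306.9 and 389.1 CPM, against 232.2, 196.2, 172.5 and 181.2 CPM (0.62), a call that was lost with median of ratios scaling (0 higher and 13 lower). The Prpf family had a median of 0.27, above 0, while SR genes had -0.41 with 3 of 10 lower. The 10 mitosis markers summed to 1388.4 CPM (plates 764.4 to 2267) in time-lapse HPC wells and 1728 CPM (plates 1228.6 to 2204) in random ones, and their part in the result was not tested.

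**Figure D3:**
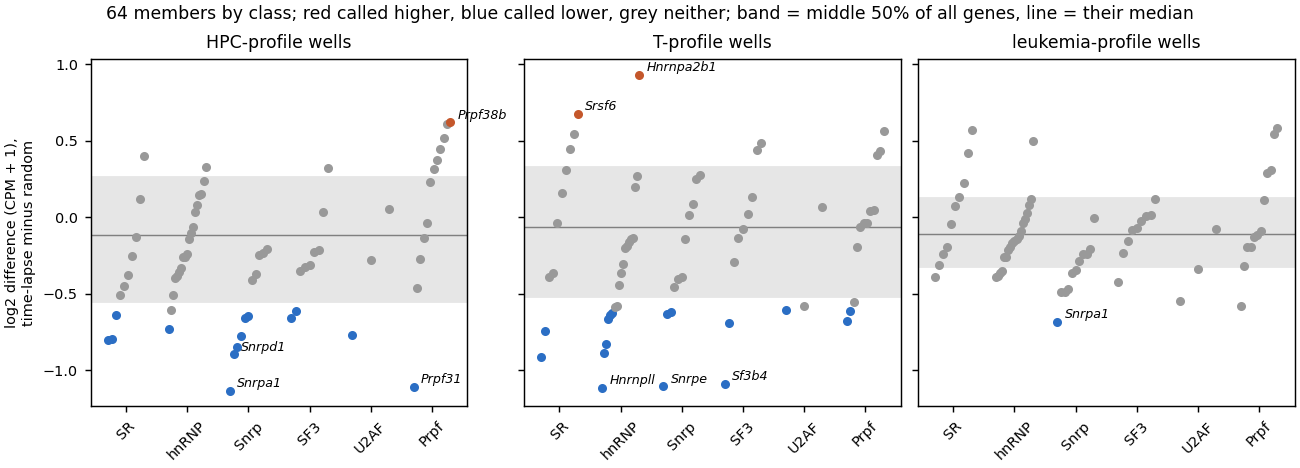
Log2 differences in CPM + 1, time-lapse minus random wells, for the 64 members by family in wells with the HPC, T and leukemia profile; red points were called higher, blue points called lower and grey points neither, and band and line give the middle 50% and the median of all genes. All 11 snRNP points lie below 0 in the HPC panel, Hnrnpa2b1 at 0.93 is the highest point of the T panel, and the leukemia panel has 1 called point, Snrpa1.

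In T-profile wells Sf3b4 had the highest level of the 3 lines but was lower in time-lapse than in random wells. It had 359.1, 397.5 and 539.5 CPM on the time-lapse plates, against 888.2, 871.3, 879.5 and 932.5 CPM on the random plates (-1.09, all time-lapse plates below all random plates). Hnrnpll had 22.9, 52.9 and 79.05 CPM, against 111.8, 108.4, 115.3 and 107.7 CPM (-1.11), and Snrpe 190.3, 302.2 and 361.3 CPM, against 696.4, 639.3, 618.4 and 574.5 CPM (-1.11). Srsf9, an SR protein, had 91.7, 129.95 and 180.7 CPM, against 248.6, 249.8, 237.8 and 235.2 CPM (-0.91). Called higher in time-lapse wells were Hnrnpa2b1, with 300.9, 579.4 and 678.1 CPM, against 250.98, 267.9, 356.8 and 300.4 CPM (0.93), and Srsf6, with 360.6, 448.9 and 616.4 CPM, against 296.2, 297.4, 263.5 and 274.4 CPM (0.68). The time-lapse T plates of Hnrnpa2b1 overlapped the random ones at their lowest, and those of Srsf6 did not. The T marker list summed to 1131.6 CPM in these time-lapse wells and to 1766 CPM in random T wells, and the progenitor list to 39.4 and 1.40 CPM, and the part of this difference in the result was not tested. In leukemia-profile wells the single call was Snrpa1, with 40.99, 77.5 and 105.3 CPM, against 115.8, 130.7, 128.6 and 116.95 CPM (-0.68).

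Line differences within the time-lapse wells were of the same kind for some members and not for others. For T minus leukemia 8 members were higher and 5 lower (20.3%, beside 43.5% of all genes, 22.6% higher and 20.9% lower), 6 and 8 with median of ratios scaling and 6 and 7 without Rn45s. For HPC minus leukemia 4 were higher and 14 lower (28.1%, beside 46% of all genes, 18.9% higher and 27.1% lower). For HPC minus T 3 were higher and 21 lower (37.5%, beside 50.9% of all genes, 20.6% higher and 30.2% lower), 5 and 17 with median of ratios scaling. The higher share of all genes called moved the same way. With median of ratios scaling it went from 51.9% to 45.8% for T minus leukemia and from 40.6% to 48.96% for HPC minus T. Without Rn45s it was 49.7% for T minus leukemia. Of the target calls, 3 of 5 higher and 2 of 4 lower recurred for T minus leukemia, 3 of 3 and 4 of 4 for HPC minus leukemia, and 3 of 4 and 6 of 10 for HPC minus T, with no opposite call. Over all genes 63.8% of the higher and 59.4% of the lower target calls recurred for T minus leukemia, 76.8% of the higher and 69.9% of the lower for HPC minus leukemia, and 65.2% of the higher and 58.2% of the lower for HPC minus T. Hnrnph1 differed by 1.68 (SD 0.36, n = 16 plates) for HPC minus T and Sf3a3 by -1.19 (SD 0.29, n = 16 plates) for HPC minus leukemia. Srsf6 differed by 1.84 (SD 0.27, n = 16 plates) for T minus leukemia and U2af1 by -1.35 (SD 0.31, n = 16 plates) for HPC minus leukemia.

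Target wells filled by ALPS were also set against FACS wells of the same profile, over 4 and 2 plates. Few members differed, and the shares called in T and leukemia wells were near those of all genes: 1 higher and 0 lower in HPC (1.56% of 64, beside 10.5% of all genes, 4.73% higher and 5.79% lower), 3 and 1 in T (6.25%, beside 5.32% of all genes, 2.69% higher and 2.64% lower) and 4 and 1 in leukemia wells (7.81%, beside 5.14% of all genes, 2.94% higher and 2.2% lower). Prpf38b and the kinase Prpf4b were higher in T wells, at 0.68 and 0.66, and in leukemia wells, at 0.68 and 0.78, and Srsf11 in leukemia wells (0.75). Hnrnph3 was lower in T wells, with 30.1, 25.2, 21.6 and 27.2 CPM in target wells against 51.6 and 37.6 CPM in FACS wells (-0.75), and in leukemia wells (-0.63), where it fell under 1.5-fold when Rn45s was left out of the total (-0.55) or with median of ratios scaling (-0.57). With FACS wells taken by label in place of profile, 12 members were called in HPC, 6 in T and 8 in leukemia wells. Leaving out FACS plate 2 gave 13 calls in HPC wells and 8 in T wells, and leaving out FACS plate 1 gave 5 and 7. No share of all genes is given for FACS wells by label or with a plate left out. Rn45s took a median of 11.2% of counts in target wells and 5.68% in FACS wells, and wells held a median of 35223 and 26843 counts.

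PBMC wells had a smaller share of splicing factor RNA than the pooled wells of each cell line group, and the families differed. The members took 1.09% of counts in PBMC wells (plates 0.944 to 1.15%), against 1.80% in random cell line wells (plates 1.78 to 1.83%). Time-lapse HPC-profile wells took 1.40%, with plates from 1.13 to 1.66%, so their lowest plate lay within the PBMC range. Rn45s took a median of 20.5% of counts in PBMC wells and 8.997% in random wells. Without Rn45s the members took 1.41% in PBMC wells, against 1.82%, 2.13% and 1.92% in random HPC, T and leukemia wells. The snRNP proteins took 0.0771% in PBMC wells (plates 0.0666 to 0.0874%), against 0.380% in random wells. The SR proteins took 0.223% and 0.274%, and the Prpf proteins 0.163% and 0.149%. The tables were deposited separately and the PBMC wells are shallow, with a median of 2147 counts, so these are levels side by side with no call. In PBMC wells the T markers summed to 2369.7 CPM, B cell markers to 1259.5 CPM, NK cell markers to 391.1 CPM and monocyte markers to 306.5 CPM, with platelet markers at 2.52 CPM. PBMC were also imaged before picking, and the time-lapse cell line wells, imaged too, had 0.312% for the snRNP proteins. The part of imaging in the PBMC shares was not tested.

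**Figure D4:**
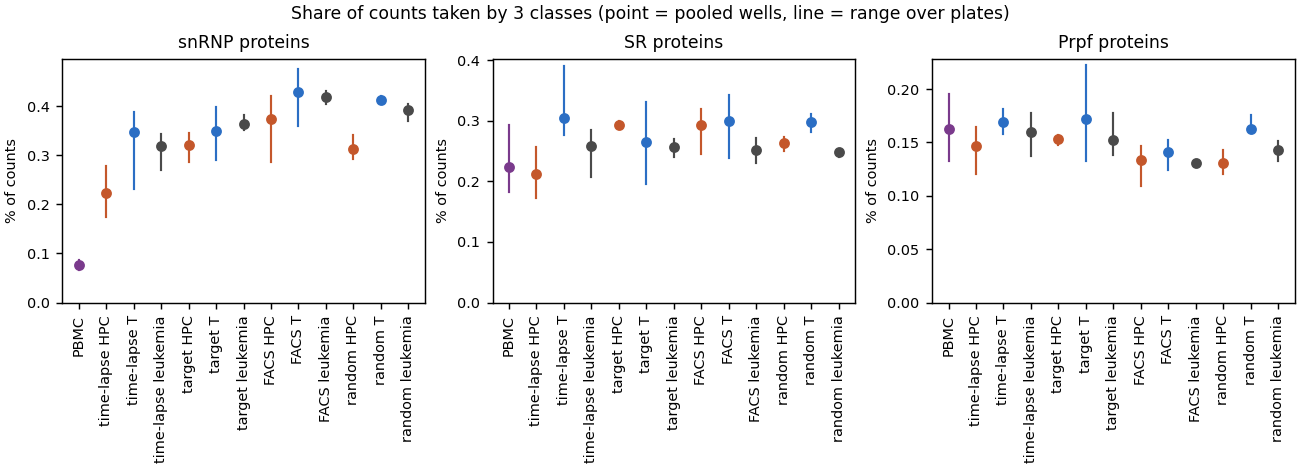
Percent of counts (y axis) taken by snRNP, SR and Prpf genes in PBMC wells and in HPC, T and leukemia wells of each set (x axis); points are pooled wells and lines the range over plates. The PBMC point of the snRNP panel, at 0.0771%, lies below every other group, while the PBMC points of the SR and Prpf panels lie among the cell line groups.

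Gene by gene, 29 of 64 members were at or under 0.5 of their random-well level in PBMC, beside 43.8% of all genes, a share near the background. Both counts hold only genes that reached the level minimum in the target cell lines. Genes high only in PBMC are thus left out, which tilts these ratios toward low values. All 11 snRNP proteins that could be compared were under 0.5, with a median ratio of 0.188. The median was 0.543 for all 64 members and 0.585 for all genes. Set against time-lapse cell line wells the number was again 11 of 11, beside 40.4% of all genes. It was 10 of 11 against random HPC wells (38.6% of all genes) or with Rn45s left out of both totals (38.3%). On each of the 8 PBMC plates all 11 lay below their random-well level. Lying below that level was common, since 4117 of 5957 genes did so over the pooled PBMC wells. Snrpd1 had 25.2 CPM (95% interval 15.4 to 38.9) in PBMC wells and 435.7 CPM in random wells. Snrpd2 of the Sm ring had 49.1 CPM (95% interval 34.9 to 67.1) and 400.2 CPM, Snrpa of the U1 particle 12.6 CPM (95% interval 6.04 to 23.2) and 108.4 CPM, and Snrpb 157.4 CPM (95% interval 131.05 to 187.6) and 371.1 CPM. Intervals cover counting error only. The other family medians were 0.771 for SR, 0.693 for hnRNP, 0.396 for SF3A and SF3B, 0.333 for U2AF and 0.810 for Prpf genes.

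**Figure D5:**
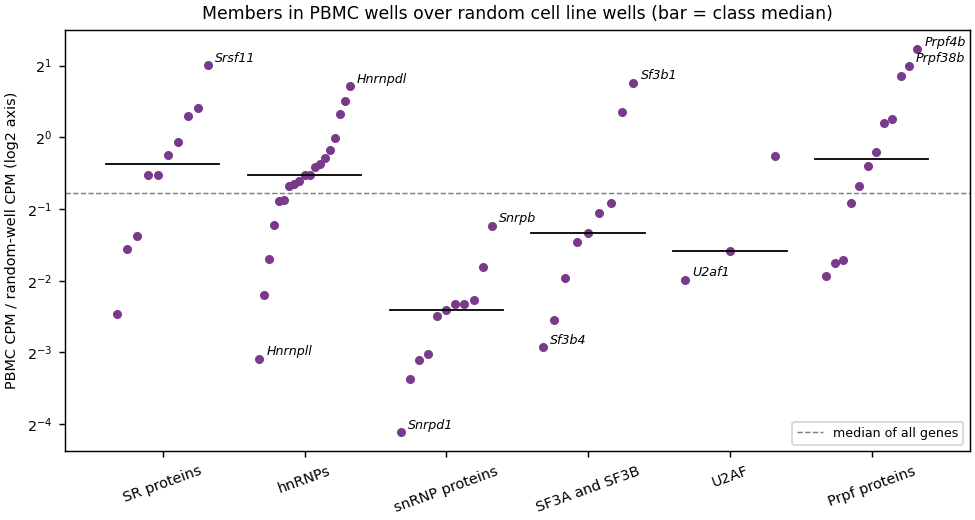
Ratio of the PBMC level to the random cell line level (y axis, log2 scale) for 64 members by family (x axis); each point is a gene, bars are family medians and the dashed line is the median of all genes at 0.585. All snRNP points lie under 0.5, and Prpf4b, Srsf11 and Prpf38b are the highest points.

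Some members were higher in PBMC than in the pooled random cell line wells. Of 64 members, 6 (9.38%) reached 1.5 times their random-well level, a smaller share than the 18.7% of all genes. Single plates of a line were not compared here. Prpf4b had 298.5 CPM (95% interval 261.7 to 339.02) in PBMC wells and 127.5 CPM in random wells, Srsf11 600.8 CPM (95% interval 548.1 to 657.2) and 299.6 CPM, and Prpf38b 622.2 CPM (95% interval 568.5 to 679.5) and 311.4 CPM. The others were Prpf39, Sf3b1 and Hnrnpdl, with ratios of 1.81, 1.70 and 1.64. Within SF3B, Sf3b1 had 401.1 CPM (95% interval 358.3 to 447.7) in PBMC wells, against 236.3 CPM in random wells, and Sf3b4 had 62.97 CPM (95% interval 46.7 to 83.02), against 479.8 CPM over all random wells, most of it from T-profile wells. Hnrnpll had 6 counts over all PBMC wells used, or 7.56 CPM (95% interval 2.77 to 16.4). The 10 mitosis markers summed to 108.3 CPM in PBMC wells and 1737 CPM in random wells. By PBMC plate they ran from 24.1 to 353.9 CPM, and the snRNP share on the plate with the highest value was 0.0724%, within the range of the other plates, while the part of the mitosis difference in the PBMC result was not tested.

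A further list of spliceosome and splicing genes with other symbols, of which 99 could be called, was counted in the same way. In target wells 12 were higher and 21 lower for T minus leukemia (33.3% of 99), 5 and 14 for HPC minus leukemia (19.2%) and 10 and 12 for HPC minus T (22.2%), beside 39.6%, 34.8% and 38.5% of all genes. Srpk2, a kinase of SR proteins, differed by 1.84 for T minus leukemia, and Gemin6 of the SMN complex, which loads Sm proteins on small nuclear RNAs, by 1.56. Snrnp35, of the minor U11/U12 particle, differed by -1.88 for T minus leukemia and by -1.93 for HPC minus leukemia. Zmat5, of the same particle, had a T minus leukemia difference of -1.71. For time-lapse minus random 8 were higher and 11 lower in HPC-profile wells, 9 and 16 in T-profile wells and 5 and 3 in leukemia-profile wells (19.2%, 25.3% and 8.08% of 99, beside 24%, 32% and 7.96% of all genes). Clk1, a kinase of SR proteins, was higher in time-lapse than in random HPC-profile wells by 1.51. In PBMC wells 33 of 99 were at or under 0.5 of their random-well level, with a median ratio of 0.819, beside 43.8% of all genes and their median of 0.585.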

How the data were processed

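Gene tables of 1836 cell line wells and of PBMC wells on 8 plates were used. The deposited values are expected counts of molecules per gene and well, most of them whole, made by the authors; 5.31% and 5.15% of positive values in the cell line and PBMC tables were not whole. The submitters' processing notes name bcl2fastq, STAR and the genome build mm10; for the tool versions, the counter, the annotation and the strand setting, the sources used here give nothing. Counts were summed per plate and line without rounding, scaled to CPM, and compared as differences of log2(CPM + 1), which understates changes of low genes. PBMC wells under 300 detected genes (7) were left out. Intervals are exact Poisson intervals at 95% and cover counting error only. Since each group counts as 1 sample, no test was run. The code that makes the calls was tested on simulated data with known changes, which checks its arithmetic and not the calls reported. The tools were matplotlib 3.10.9, pandas 2.3.3 and numpy 2.4.6 with scipy 1.17.1 on Python 3.11.15.

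The members and the lists were chosen with earlier results of these data known. Genes named were the 6 members called with the largest difference per direction in each target comparison, the 4 largest per direction and line for time-lapse minus random and target minus FACS, the 10 highest over the target lines, a fixed set of well known members, and members with over 20% of values not whole. The values of 1 member that the rule names are not reported here. Hnrnpdl, Snrpd2, Snrpa and the other genes given for PBMC were chosen after their values were seen. Alternatives covered scaling, the CPM added, the level minimum, the fold, the plate rule, pooling, rounding, FACS wells by label, wells off their label, and each plate left out.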

Additional observations from a re-analysis of the deposited data

Results flagged for a closer look

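Of the sets of 4 plates of named members, 13 had a plate far from the other 3, which is 4.91% of the sets looked at, and chance gives about 1 in 20. In target HPC wells these were Hnrnpll at 21.1 CPM against a median of 0, Prpf3 at 37.7 against 27.2, Prpf8 at 176.4 against 208.3, Srsf5 at 291.4 against 350.8, and Srsf7 at 241.02 against 282.3. In target leukemia wells Prpf18 had 27.1 CPM on a plate against a median of 35.95, and Snrpe 275.8 against 302.1. In random HPC wells Hnrnph1 had 236.2 CPM against 286.4, and Sf3b4 97.2 against 124.6. In random T wells Snrpb2 had 306.6 CPM on a plate against a median of 251.1. In random leukemia wells Hnrnpk had 564.5 CPM against 610.3, Snrpe 267.3 against 330.3, and Snrpg 675.9 against 718.8. The Hnrnpll value came with the 3 HPC-labelled wells whose profile was T or leukemia, which also held Cd3e.

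The gene Hnrnpa1l2-ps2, left out of the members as a pseudogene, was found at 11.2 CPM over all cell line wells, outside the comparisons above, and had 1.5 counts over the PBMC wells.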

How the results depend on the processing

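No named difference changed sign: the pairs of named gene and comparison gave 1725 values under the alternatives, of which 5 moved by more than the spread between plates. At 2-fold the calls numbered 4, 4 and 3 in target wells (T minus leukemia, HPC minus leukemia, HPC minus T), against 9, 7 and 14 at 1.5-fold, then 5, 5 and 6 in random wells against 12, 9 and 15, and 3, 5 and 10 in time-lapse wells against 13, 18 and 24. At 2-fold they numbered 2, 3 and 0 for time-lapse minus random (HPC, T, leukemia) against 15, 18 and 1, and 0 and 0 for target minus FACS (T, leukemia) against 4 and 5. A minimum of 50 CPM gave 4 calls for HPC minus leukemia and 9 for HPC minus T in target wells. For time-lapse minus random in leukemia wells, leaving Rn45s out gave 4 calls, median of ratios scaling 3, the mean of CPM over wells 5, and leaving out the 11 time-lapse wells with a profile gap under 0.05, an alternative chosen after seeing the data, 2. For target minus FACS in HPC wells, leaving Rn45s out gave 6 calls, median of ratios scaling 3, and the mean of CPM over wells, leaving out wells off their label and no plate rule 2 each. FACS wells by label gave 12 calls in HPC and 8 in leukemia wells. Leaving Rn45s out gave summed shares of 1.41% in PBMC, 2.04% and 1.95% in target HPC and leukemia, 1.63%, 1.98% and 1.87% in time-lapse HPC, T and leukemia, 1.95% in FACS leukemia, and 1.82%, 2.13% and 1.92% in random HPC, T and leukemia wells. The comparisons of PBMC with other sets of wells were also chosen after seeing the data.

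Leaving out each plate in turn gave 10 to 12 calls for T minus leukemia, 8 to 10 for HPC minus leukemia and 13 to 17 for HPC minus T in target wells, and 10 to 12, 9 to 11 and 14 to 17 in random wells. It gave 14 to 16, 19 to 21 and 1 to 4 for time-lapse minus random in HPC, T and leukemia wells, and 1 to 13, 2 to 8 and 2 to 5 for target minus FACS. For leukemia wells in time-lapse minus random there were 4 calls without random plate 1 and 2 without random plate 3. For target minus FACS in HPC wells there were 2 without target plate 1 or 2, 4 without target plate 4, 5 without FACS plate 1 and 13 without FACS plate 2. In T wells there were 2 without target plate 3, 7 without FACS plate 1 and 8 without FACS plate 2, and in leukemia wells 2 without target plate 3 and 3 without FACS plate 2. With a plate left out, the plate rule has fewer plates to hold on, and with a FACS plate left out only 1 FACS plate remains. The part of this in the shifts was not tested. With median of ratios scaling target minus FACS in leukemia wells split into 4 higher and 0 lower, and the median of all genes for target minus FACS in T wells moved to -0.02. For HPC minus T it moved to -0.04 in random and -0.03 in time-lapse wells. For target minus FACS in leukemia wells the higher share of all genes called rose too, from 57.2% to 72.6%. The differences between lines were taken within plates, so each plate is already a block there. Between sets of wells, no paired analysis was possible because the sets share no plate. PBMC depth limits single members there to counts such as the 6 of Hnrnpll.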
